A study of Mus musculus with 8 samples.

Results

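The response of KAT8-deficient macrophages to R848 was read in 4 of the 8 RNA-seq libraries of the series: 2 from KAT8-deficient cells given R848 at 100 ng/ml for 6 h and 2 from KAT8-deficient cells left untreated. They were chosen by their column names, and all 14040 genes with enough counts were tested. The cells were bone-marrow-derived macrophages, primary cells that every group grew from mouse marrow with 20 ng/ml of the growth factor M-CSF. The other 4 libraries, 2 untreated and 2 given the same R848 treatment, came from wild-type (WT) cells and serve here for comparison. Titles call the mutant KAT8-cKO. The sources used here do not give the Cre driver, the deleted exons, or the strain, age and number of mice. The labels do not say whether libraries 1 and 2 of a group came from separate mice or cultures, so the p-values speak to the spread of these particular libraries, which may be technical.

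R848 (resiquimod) is a small molecule that activates TLR7, which senses single-stranded RNA in endosomes. Through the adaptor MyD88 the receptor activates the transcription factor NF-kB, which induces cytokines, chemokines and its own inhibitors, and IRF factors, which can induce type I interferon and, through it, interferon-stimulated genes. KAT8, or MOF, belongs to the MYST family of acetyltransferases and, as part of the MSL or NSL complex, acetylates histone H4.

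Levels are given as CPM, counts scaled to library size with TMM factors, and changes as log2 with a standard error (SE) from edgeR's quasi-likelihood fit. Sums over a list took all its members with a row of counts, tested or not, scaled to library size without TMM factors. Total counts were between 18550977 and 21384532 per library. Kat8 (ENSMUSG00000030801, chromosome 7, 127912516 to 127925837, GRCm38) held 8.76 and 10.8 CPM in the untreated KAT8-deficient libraries and 9.94 and 10.4 CPM under R848, below the 4 WT libraries, which held 15.98 to 18.03 CPM. Its R848 change was 0.06 (SE 0.13, edgeR adjusted p = 0.879), and which exons these reads cover is not given. Macrophage genes were present throughout: Lyz2, encoding lysozyme, held 5202 to 5944 CPM and Adgre1, encoding F4/80, held 340.2 to 391.0 CPM in the KAT8-deficient libraries. The 20 macrophage identity genes summed to 12730 and 11820 CPM untreated and 11460 and 11840 CPM under R848, below the 17280 to 18470 CPM of WT libraries. Some marker genes of other cells gave counts too. The 18 fibroblast and stromal markers summed to 10960 and 10640 CPM in untreated and 9704 and 10230 CPM in R848-treated KAT8-deficient libraries, against 6960 to 9045 CPM in WT libraries. The 13 neutrophil markers summed to 82.0 to 102.7 CPM in the KAT8-deficient libraries. Of these 6 had enough counts to test, while Ly6g and Elane had 0 counts in all 4 libraries. S100a9, Mpo, Ngp, Ltf and Retnlg had at most 8 counts in any of them. The 10 dendritic cell markers summed to 603.7 to 681 CPM. Of these 6 were tested, while Flt3, Xcr1 and Siglech had 0 counts in the KAT8-deficient libraries and Cd209a at most 1. The neutrophil and dendritic cell sums thus rest on the tested members, and whether such cells were present was not tested. Fewer cells of a type and less RNA per cell cannot be told apart in such bulk samples.

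R848 raised genes for pattern receptors, chemokines, tumour necrosis factor, itaconate synthesis and NF-kB inhibitors in KAT8-deficient cells, mostly by under 4-fold, and lowered a smaller set that included contractile and matrix genes. By edgeR at an adjusted p of 0.05, 70 of 14040 genes rose (0.499% of genes tested) and 19 fell (0.135%). Of these, 20 rose and 4 fell by at least 1 on the log2 scale. At an unadjusted p of 0.05 edgeR counted 1944 genes. Over all tested genes the median change was 0.002 and the median SE 0.118. The number called depended on single libraries. Without untreated library 1, 2 genes were called, and 1 of the 89 was among them. Without untreated library 2, 31 were called and 15 were shared. Leaving out R848 library 1 gave 186 genes with 70 shared, and leaving out R848 library 2 gave 40 with 23 shared. Removing a WT R848 library, which is no part of this contrast but is in the same fit, left 17 or 20 genes. The 4 KAT8-deficient libraries fitted alone gave 22, and 42 of the 51 called genes that met the naming rules lost the call there.

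**Figure D1:**
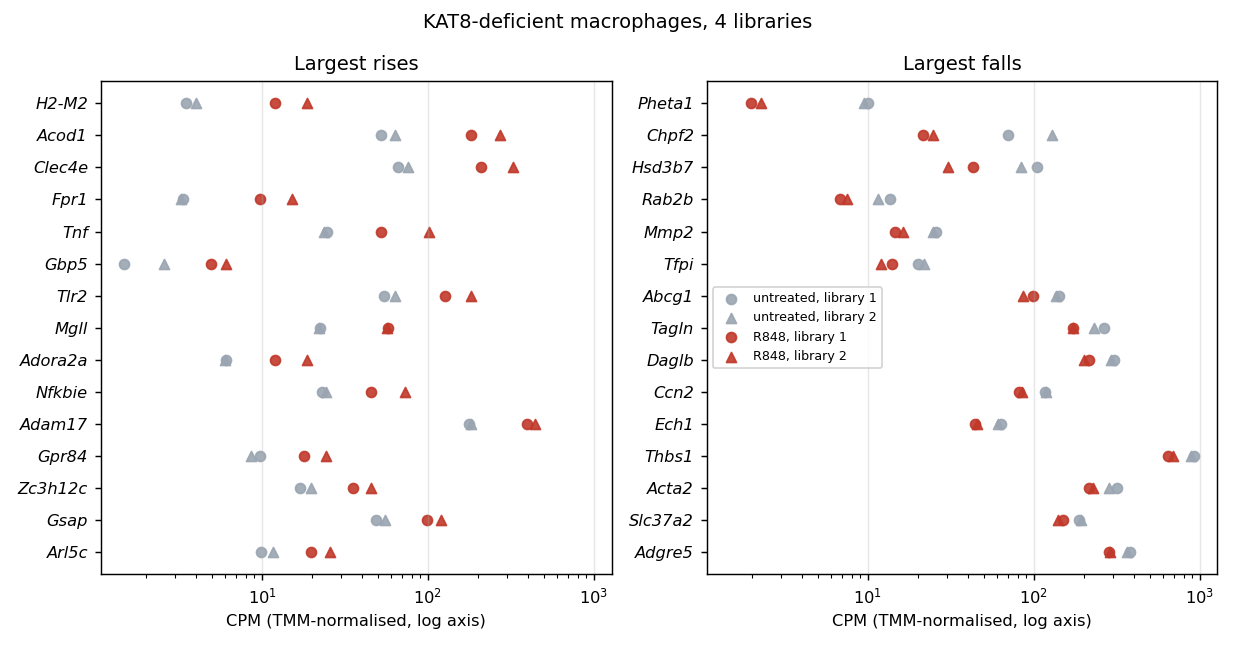
CPM on a log axis of the 15 largest rises (left) and 15 largest falls (right) in each of the 4 KAT8-deficient libraries, grey for untreated and red for R848, circles for library 1 and triangles for library 2. The genes were chosen for untreated and R848 libraries that do not overlap; among the rises the triangle lies to the right of the circle under R848 except for Mgll, where they coincide.

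Receptors for microbial and danger signals were among the largest rises. Clec4e encodes Mincle, a lectin receptor for mycobacterial glycolipid, and held 65.7 and 75.4 CPM untreated, then 210.2 and 326.4 CPM under R848. Both R848 libraries were well above both untreated ones, and Clec4e rose by 1.93 (SE 0.18, edgeR adjusted p = 0.00861). Tlr2, encoding the lipoprotein receptor, went from 54.7 and 63.7 to 127.4 and 180.9 CPM, and it rose by 1.38 (SE 0.15, edgeR adjusted p = 0.0157). Fpr1, the formyl peptide receptor gene, held 3.36 and 3.26 CPM and then 9.71 and 15.2 CPM, a rise of 1.91 (SE 0.23, edgeR adjusted p = 0.023). Each of these receptors was higher in R848 library 2 than in library 1. In the list of 17 C-type lectins and scavenger receptors Clec4e and Clec5a rose and 0 fell, against 0.499% and 0.135% of all tested genes. In the list of 23 inflammatory G protein-coupled receptors Fpr1, Hcar2 (a niacin receptor), Gpr84 (a receptor for medium-chain fatty acids) and Adora2a (an adenosine receptor) rose and 0 fell. Members of that receptor list lay on both sides, with both R848 libraries above both untreated ones for 13 of 23 and below them for 9, against 23.8% and 23% of all genes, and the list median was 0.15. Of 26 genes for Toll-like receptors and adaptors Tlr2 and Ikbke, a kinase that activates IRF3, rose.

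Tlr7, the receptor for R848 itself, gave 33.1 and 77.9 CPM untreated and 29.6 and 69.1 CPM under R848. The levels followed the library number and not treatment: library 2 was the higher by 1.24 on the log2 scale untreated and by 1.22 under R848. In WT cells R848 library 1 held 84.7 CPM and the other 3 libraries 30.2 to 35.2 CPM. Its change was -0.17 (SE 0.52, edgeR adjusted p = 0.916). Myd88, the adaptor gene, held 66.8 and 71.3 CPM and then 71.4 and 77.7 CPM (0.11, SE 0.12, edgeR adjusted p = 0.715).

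Among effectors, Acod1 encodes the enzyme that makes itaconate from cis-aconitate (ENSMUSG00000022126, chromosome 14, 103046977 to 103056573). Its levels were 52.3 and 63.6 CPM untreated and 181.2 and 271.3 CPM under R848. The rise in Acod1 was 1.97 (SE 0.18, edgeR adjusted p = 0.00861), and it was the 1 called gene of 22 inflammatory mediators and enzymes. Over all tested genes 0.499% were called higher. Sod2, the mitochondrial superoxide dismutase gene and an NF-kB target, rose by 1.01 (SE 0.13, edgeR adjusted p = 0.0273), from 134.6 and 134.4 CPM to 231.8 and 311.4 CPM. Nos2, encoding inducible nitric oxide synthase, had 0 counts in both untreated libraries and 0.236 and 0.283 CPM under R848 (edgeR adjusted p = 0.188). Its R848 levels were just above the 3-count floor of 0.143 and 0.141 CPM in these libraries. Ptgs2, encoding cyclooxygenase 2, stood at 32.8 and 33.3 CPM and then at 22.9 and 34.9 CPM (-0.19, SE 0.18, edgeR adjusted p = 0.666).

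Of 21 inflammatory cytokine genes tested, Tnf and Il1a rose and 0 fell, against 0.499% and 0.135% of all tested genes. Tnf, encoding tumour necrosis factor (chromosome 17, 35199381 to 35202007), held 24.6 and 23.6 CPM untreated. Under R848 it held 51.8 CPM in library 1 and 100.9 CPM in library 2. The libraries of each state did not overlap, and Tnf rose by 1.66 (SE 0.26, edgeR adjusted p = 0.0398), although only 2 of the 8 fits with a library left out kept that call. Il1a, encoding interleukin 1 alpha, rose by 0.84 (SE 0.11, edgeR adjusted p = 0.0273), from 24.4 and 24.2 CPM to 38.7 and 48.2 CPM. Il1b held 0 and 0.161 CPM and then 0.566 and 1.46 CPM (edgeR adjusted p = 0.25), and Il12b, a subunit gene of interleukins 12 and 23, held 0.052 and 0.053 CPM and then 0.33 and 0.896 CPM (edgeR adjusted p = 0.408). Il6 stayed between 0.66 and 1.56 CPM in the 4 libraries (edgeR adjusted p = 0.917). These 3 genes were therefore scarce at this depth, which limits what a test can show. Il10, the anti-inflammatory cytokine gene, held 4.46 and 4.01 CPM and then 3.58 and 3.02 CPM (-0.36, SE 0.20, edgeR adjusted p = 0.459). Ifnb1, encoding interferon beta, had 0 counts in all 4 KAT8-deficient libraries, which allows up to 0.161 CPM in the shallowest of them.

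Of 9 CC chemokines tested, Ccl2, Ccl4, Ccl7 and Ccl9 rose and 0 fell, and of 8 CXC chemokines Cxcl5 and Cxcl10 rose. Over all tested genes 0.499% rose and 0.135% fell. Ccl9 held 50.6 and 50.2 CPM untreated and 83.9 and 89.2 CPM under R848, a rise of 0.78 (SE 0.07, edgeR adjusted p = 0.00861). Ccl2, a monocyte attractant, held 82.3 and 76.3 CPM and then 125.9 and 155.5 CPM, a rise of 0.83 (SE 0.11, edgeR adjusted p = 0.0273). Cxcl10, an interferon-inducible T cell attractant, held 6.88 and 6.21 CPM and then 11.8 and 13.6 CPM, a rise of 0.96 (SE 0.14, edgeR adjusted p = 0.03). The largest gap among chemokines was that of Cxcl2, which attracts neutrophils, with 3.10 and 2.94 CPM untreated and 9.47 and 24.95 CPM under R848. It did not pass (2.51, SE 0.53, edgeR adjusted p = 0.0875). The list medians were 0.57 for CC and 0.85 for CXC chemokines.

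Of 39 genes of NF-kB and its feedback, Zc3h12c, Sod2, Tnip1, Tnip3, Nfkbie, Icam1, Zc3h12a and Cflar rose and 0 fell, 8 in all. Over all tested genes 0.499% rose. Nfkbie, an inhibitor that holds NF-kB in the cytoplasm, went from 22.8 and 24.5 CPM to 45.3 and 73.0 CPM, a rise of 1.32 (SE 0.20, edgeR adjusted p = 0.0327). Zc3h12c, of the Regnase family of RNA-degrading enzymes, rose by 1.14 (SE 0.13, edgeR adjusted p = 0.0176), from 17.0 and 19.9 CPM to 35.2 and 45.6 CPM. Both R848 libraries exceeded both untreated ones for 31 of the 39 genes, while 23.8% of all tested genes did so. The list median was 0.49.

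Among antigen presentation and interferon-inducible genes, 3 of 15 MHC class I and loading genes, 2 of 22 GTPases and IRF1 targets and 1 of 43 type I interferon-stimulated genes rose, against 0.499% of all genes. The MHC class I genes were H2-M2, H2-Q4 and H2-Q6, and H2-Q4 and H2-Q6 are uncertain because the H2-Q genes are near-identical copies whose reads can be split in counting. H2-M2, a non-classical class I gene, held 3.46 and 4.01 CPM untreated, then 11.9 and 18.8 CPM under R848. It rose by 2.04 (SE 0.22, edgeR adjusted p = 0.0157), the largest rise that met the naming rule. Of the GTPases Gbp2 and Gbp5 rose, and both belong to the guanylate-binding proteins that attack intracellular microbes. Gbp5 stood at 1.47 and 2.57 CPM and then at 4.90 and 6.08 CPM, a rise of 1.44 (SE 0.24, edgeR adjusted p = 0.042). It was not called with the 4 KAT8-deficient libraries alone (edgeR adjusted p = 0.154) or by limma-voom. Parp14 was the 1 interferon-stimulated gene that rose, from 78.8 and 87.6 CPM to 125.2 and 121.4 CPM (0.57, SE 0.07, edgeR adjusted p = 0.0273). Isg15, encoding a ubiquitin-like protein, held 8.40 and 7.38 CPM and then 9.33 and 7.50 CPM (0.09, SE 0.15, edgeR adjusted p = 0.839). Lists of 8 MHC class II genes and 13 costimulation genes had 0 called members, with medians of 0.07 and 0.12.

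The 2 KAT8-deficient R848 libraries differed in how far they had moved, and the direction of that difference was opposite for NF-kB genes and interferon-stimulated genes. To look at this with genes that were not chosen in these libraries, 229 genes were taken that rose by at least 1 on the log2 scale in the 4 WT libraries fitted alone. Their median change over the untreated mean was 0.46 in R848 library 1 and 0.71 in library 2. Library 2 was the higher for 197 of the 229 (86.0%), against 51.6% of all tested genes. In the untreated KAT8-deficient pair library 2 was the higher for 137 of the 229, and in the WT R848 pair for 84, although the WT pair took part in choosing them. Per 1 unit of WT change, the slope across these genes was 0.185 in library 1 and 0.277 in library 2 (Pearson r 0.34 and 0.38 across genes, which share libraries and are not independent).

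Within the NF-kB and feedback list, library 2 exceeded library 1 for 35 of 39 genes, with medians of 0.29 in library 1 and 0.66 in library 2. The untreated pair was near even for the same genes, with library 2 higher for 21, and so was the WT R848 pair, with 20. Nfkbia, encoding the inhibitor IkB alpha, illustrates this with 79.4 and 71.3 CPM untreated, 98.9 CPM in R848 library 1 and 144.5 CPM in library 2 (edgeR adjusted p = 0.0954). Tnfaip3, encoding the inhibitor A20, held 49.8 and 45.4 CPM untreated and 55.4 and 80.1 CPM under R848 (edgeR adjusted p = 0.568). Nfkbia and Tnfaip3 were chosen after their values were seen. Library 2 was also the higher for 16 of 21 cytokine genes, 7 of 8 CXC chemokines and 20 of 24 NRF2 antioxidant genes.

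In the type I interferon-stimulated list the order was the reverse. Library 1 exceeded library 2 for 40 of 43 genes, and the median change was 0.39 in library 1 and 0.009 in library 2. Of the 43 genes, 40 lay above both untreated libraries in R848 library 1 and 18 in library 2. Library 2 was the higher for 22 of the 43 in the untreated KAT8-deficient pair. In the WT R848 pair it was the higher for 9, with a median gap of -0.08 (library 2 minus library 1), against -0.26 in the KAT8-deficient R848 pair. Ifit1, encoding an RNA-binding antiviral protein, held 4.62 and 6.42 CPM untreated, 10.4 CPM in R848 library 1 and 6.13 CPM in library 2. Library 2 thus sat at the untreated level. Rsad2, encoding viperin, showed the same order at 26.9 and 33.2 CPM untreated and 39.3 and 30.1 CPM under R848, and Zbp1, a nucleic acid sensor gene, at 5.30 and 4.01 CPM and then 9.61 and 5.38 CPM. Ifit1, Rsad2 and Zbp1 were chosen after their values were seen, and none passed the test (edgeR adjusted p of 0.352, 0.553 and 0.305). Among the 229 genes chosen in WT libraries, all 20 that belong to the NF-kB list were higher in library 2 and all 6 that belong to the interferon list were higher in library 1. Of these 6, Parp14, Ifi205 and Ifi211 were near-ties, with gaps of -0.044, -0.009 and -0.005 (library 2 minus library 1). Over all tested genes the median absolute gap between the KAT8-deficient R848 libraries was 0.12. Tlr7, as given above, was also higher in R848 library 2, and its part in these gaps was not tested. The cause of the gaps was not tested, and with 2 libraries a group they have no replicate check.

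**Figure D2:**
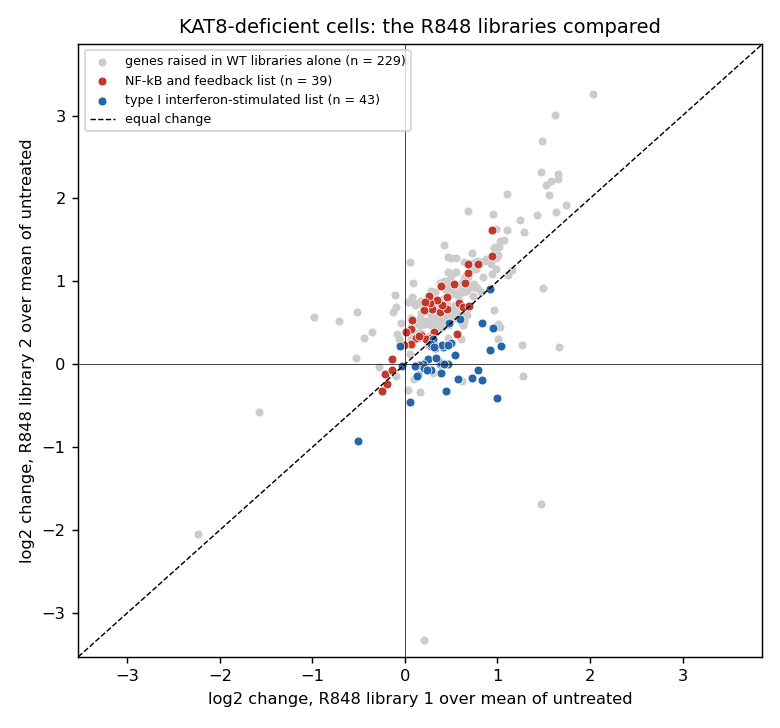
Each point is a gene in KAT8-deficient cells, with its log2 change in R848 library 1 (x) and R848 library 2 (y) over the mean of the untreated libraries; the dashed line marks equal change. Red NF-kB and feedback genes lie above the line in 35 of 39 cases and blue type I interferon-stimulated genes below it in 40 of 43; grey points are the 229 genes raised in WT libraries alone.

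Promoter sequences show how these lists differ in the letters upstream of their starts. Motifs were searched on both strands in windows of 300 bases (250 before and 50 after a start) from RefSeq promoters on GRCm38.p6. An NF-kB type motif, GGGNNTTTC, was in 4.36% of 32851 promoters and an interferon-response type motif, GAAANNGAA, in 8.56%; the motifs can overlap each other in principle. By gene, 8 of the 34 NF-kB and feedback genes with a promoter in the table held the first (23.5%, against 5.06% of 27025 genes) and 5 held the second (14.7%). Of 32 interferon-stimulated genes 19 held the second (59.4%, against 9.76% of genes) and 0 the first. Of 60 genes called higher in KAT8-deficient cells, 12 held the NF-kB type and 9 the interferon type, and of 11 called lower 0 and 1 did. The letters were set after values were seen. A match is a description of the letters and says nothing of binding.

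The promoters of Nfkbia, Tnfaip3 and Ccl9 are shown because each has an NF-kB type match. Nfkbia and Tnfaip3 stood higher in R848 library 2, by gaps of 0.55 and 0.53 on the log2 scale. Ccl9, a called chemokine gene outside the NF-kB list, was near even, with a gap of 0.09. The median absolute gap over all tested genes was 0.12. These promoters were chosen after values were seen. Each run is the 250 bases before the start, 5' to 3', with matches in capitals. They lie at chr12:55492648-55492897, minus strand (Nfkbia), chr10:19015411-19015660, minus strand (Tnfaip3) and chr11:83578637-83578886, minus strand (Ccl9).
Nfkbia: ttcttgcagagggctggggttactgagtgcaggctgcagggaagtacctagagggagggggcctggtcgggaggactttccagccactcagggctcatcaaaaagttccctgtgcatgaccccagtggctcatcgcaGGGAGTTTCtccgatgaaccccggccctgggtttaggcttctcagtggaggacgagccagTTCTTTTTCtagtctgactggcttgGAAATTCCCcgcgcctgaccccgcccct
Tnfaip3: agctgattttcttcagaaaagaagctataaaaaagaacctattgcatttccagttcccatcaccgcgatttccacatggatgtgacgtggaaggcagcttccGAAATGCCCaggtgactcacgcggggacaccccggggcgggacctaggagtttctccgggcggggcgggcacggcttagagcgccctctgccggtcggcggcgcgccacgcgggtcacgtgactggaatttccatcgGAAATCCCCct
Ccl9: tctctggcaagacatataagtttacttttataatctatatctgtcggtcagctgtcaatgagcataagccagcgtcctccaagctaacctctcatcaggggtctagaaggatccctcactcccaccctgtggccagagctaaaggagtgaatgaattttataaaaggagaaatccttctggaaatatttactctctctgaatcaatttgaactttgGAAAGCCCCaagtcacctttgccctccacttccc
NF-kB type matches begin 113 and 28 bases before the start in Nfkbia, 148 and 11 in Tnfaip3 and 34 in Ccl9. The remaining capitals in Nfkbia, 53 bases before the start, are an interferon-response type match.

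Ifit1, Isg15 and Rsad2 are shown as interferon-stimulated genes that stood higher in R848 library 1, with gaps of -0.75, -0.31 and -0.38. Capitals mark interferon-response type matches, 3 in Ifit1 and 3 in Isg15, some of which overlap, and 1 in Rsad2. The runs lie at chr19:34640639-34640888, plus strand (Ifit1), chr4:156200819-156201068, minus strand (Isg15) and chr12:26456453-26456702, minus strand (Rsad2).
Ifit1: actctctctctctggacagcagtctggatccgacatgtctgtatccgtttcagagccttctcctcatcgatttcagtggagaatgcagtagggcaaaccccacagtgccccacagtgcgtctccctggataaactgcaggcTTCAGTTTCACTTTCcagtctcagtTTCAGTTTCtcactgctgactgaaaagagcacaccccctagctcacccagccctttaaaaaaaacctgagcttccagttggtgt
Isg15: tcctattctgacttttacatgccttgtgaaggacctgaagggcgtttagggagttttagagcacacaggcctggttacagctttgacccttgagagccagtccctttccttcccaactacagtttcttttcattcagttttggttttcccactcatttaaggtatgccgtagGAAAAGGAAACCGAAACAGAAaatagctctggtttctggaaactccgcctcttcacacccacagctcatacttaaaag
Rsad2: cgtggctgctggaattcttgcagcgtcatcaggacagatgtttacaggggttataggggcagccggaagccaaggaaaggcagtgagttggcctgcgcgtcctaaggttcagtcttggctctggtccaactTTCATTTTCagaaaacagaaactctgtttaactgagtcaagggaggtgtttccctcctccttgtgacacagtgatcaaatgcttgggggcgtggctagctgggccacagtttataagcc
Gbp5, which rose, has matches of both types in its promoter at chr3:142496684-142496933, plus strand. In capitals, NF-kB type matches begin 203 and 76 bases before the start, with the interferon type between them at 164 bases.
Gbp5: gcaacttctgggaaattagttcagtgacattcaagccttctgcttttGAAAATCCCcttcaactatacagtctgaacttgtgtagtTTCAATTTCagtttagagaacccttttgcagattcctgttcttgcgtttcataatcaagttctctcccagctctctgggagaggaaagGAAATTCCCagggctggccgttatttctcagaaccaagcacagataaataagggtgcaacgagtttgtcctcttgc
The Gbp5 gap between the R848 libraries was 0.31, with library 2 the higher. Its untreated libraries had a larger gap in the same direction, 0.76.

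Among lists with at least 8 tested genes, the interferon-stimulated and NF-kB lists stood at the ends of the order of lists by median gap. Sterol synthesis genes were higher in R848 library 1 for 19 of 25 members, with medians of 0.23 and 0.10, and 0 of them passed the test. Both R848 libraries exceeded both untreated ones for 16 of the 25, against 23.8% of all genes. Mesothelial markers were higher in R848 library 1 for 9 of 10 members, and among the untreated libraries library 1 was the higher for 8 of 10. All 13 mitochondrially encoded genes were higher in both R848 libraries than in both untreated ones, as were 23.8% of all genes. Their median was 0.24, with near-equal medians of 0.26 and 0.21 in libraries 1 and 2. None passed, and their sum went from 18430 and 19070 CPM to 21980 and 21340 CPM. Glycolysis genes leaned the other way: 13 of 18 had both R848 libraries below both untreated ones, against 23% of all genes, with a median of -0.15 and 0 calls. Tpi1, triosephosphate isomerase, held 413.6 and 416.4 CPM and then 314.6 and 339.5 CPM (-0.34, SE 0.06, edgeR adjusted p = 0.0661).

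**Figure D3:**
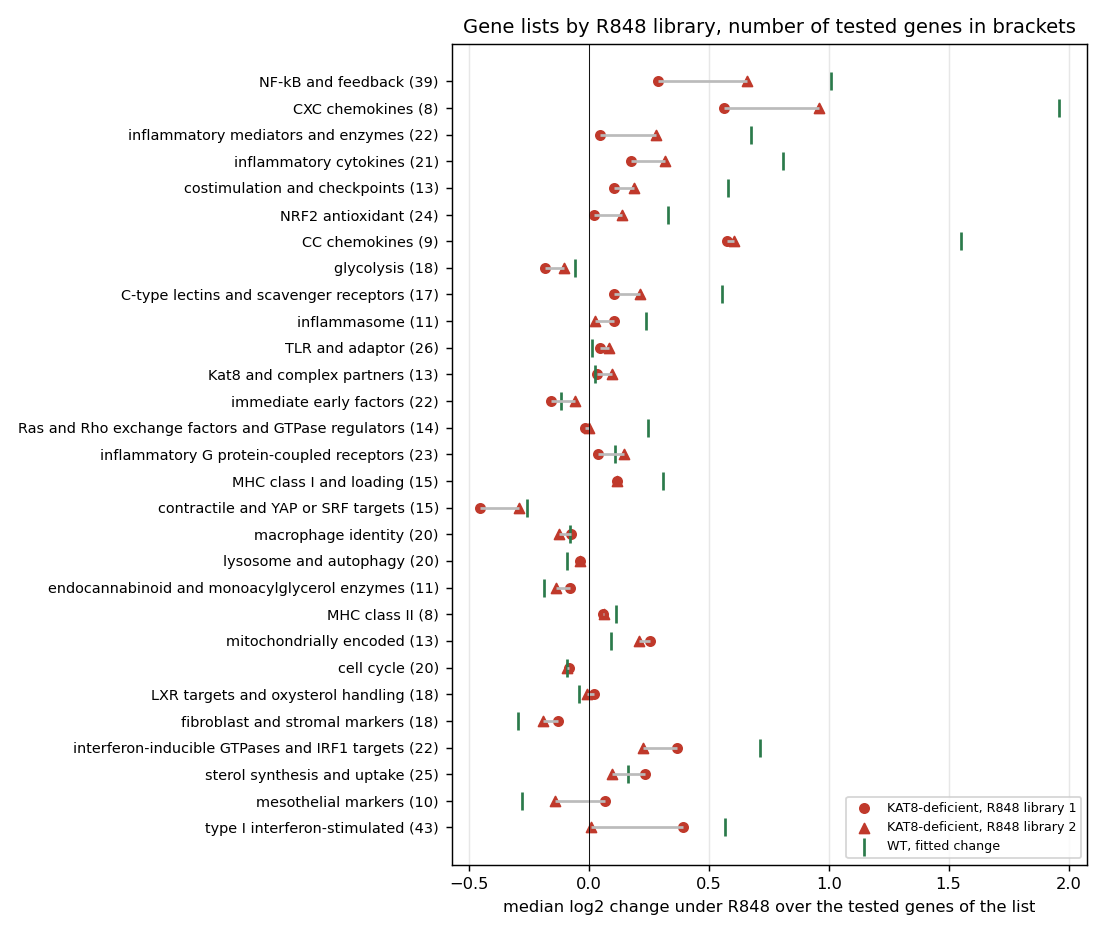
Median log2 change over the tested genes of each list with at least 8 tested genes, in KAT8-deficient R848 library 1 (circle) and library 2 (triangle), with the WT fitted median (green bar), ordered by the median gap between the R848 libraries. The NF-kB list at the top runs from 0.29 to 0.66, and the interferon-stimulated list at the bottom runs in the opposite order, 0.39 to 0.009.

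Not all rises were uneven. Mgll encodes monoacylglycerol lipase, which breaks down the endocannabinoid 2-arachidonoylglycerol (ENSMUSG00000033174, chromosome 6, 88724412 to 88828360). Untreated libraries held 22.3 and 21.9 CPM and R848 libraries 57.2 and 56.7 CPM. The R848 libraries coincided, and Mgll rose by 1.36 (SE 0.07, edgeR adjusted p = 0.000464). Among the 51 named genes that were called it was the 1 called in all 9 processing alternatives and in all 8 fits leaving out a library. In the same list of 11 enzymes Daglb, a diacylglycerol lipase that makes 2-arachidonoylglycerol, fell by 0.52 (SE 0.07, edgeR adjusted p = 0.0286), from 305.1 and 293.6 CPM to 216.5 and 202.0 CPM. Daglb overlaps Rac1 on the other strand, whose level was flat at 390.5 to 398.8 CPM. Adam17, the protease that releases tumour necrosis factor from the cell surface, rose by 1.23 (SE 0.17, edgeR adjusted p = 0.03), from 176.1 and 182.1 CPM to 397.9 and 440.5 CPM. It is uncertain, because it overlaps Iah1 on the other strand and the counting strand is not given; Iah1 held 37.1 to 52.7 CPM. Adam17 was not called without R848 library 2 (edgeR adjusted p = 0.106) or without either untreated library. The predicted gene Gm20716, outside the naming rule and chosen after its values were seen, had 0 counts in both untreated libraries and 12.02 and 15.6 CPM under R848, and the 4 WT libraries held 11.3 to 22.3 CPM.

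Falls were mostly small and even. Of 15 contractile and YAP or SRF target genes, Tagln, Acta2 and Ccn2 fell and 0 rose, against 0.135% and 0.499% of all tested genes. In this list 12 genes had both R848 libraries below both untreated ones (23% of all genes did), and the median was -0.31. Acta2, smooth muscle actin, held 317.5 and 285.3 CPM and then 216.0 and 227.9 CPM, a fall of 0.44 (SE 0.07, edgeR adjusted p = 0.0413 for -0.44). Tagln, a smooth muscle actin-binding protein gene, fell by 0.52 (SE 0.08, edgeR adjusted p = 0.03), from 263.6 and 230.0 CPM to 171.9 and 171.7 CPM. Thbs1, encoding the matrix protein thrombospondin 1, fell by 0.44 (SE 0.06, edgeR adjusted p = 0.0305), from 928.3 and 884.9 CPM to 641.0 and 693.0 CPM. Mmp2, the gelatinase gene, was the 1 called member of 18 fibroblast and stromal markers and fell by 0.70 (SE 0.11, edgeR adjusted p = 0.0413). Tfpi, an inhibitor of coagulation, was the 1 called member of the 6 endothelial markers tested and fell by 0.69 (SE 0.12, edgeR adjusted p = 0.0481). That list has 11 members, of which Cldn5 had 0 counts. Pecam1, Tek, Tie1 and Emcn had at most 7 counts in any KAT8-deficient library and were not tested. In the 8 fits with a library left out Tagln kept the call in 3, Thbs1 and Mmp2 in 2, Tfpi in 1, and Acta2 and Ccn2 in 0. With the 4 libraries alone none of these 6 was called (edgeR adjusted p from 0.0596 for Ccn2 to 0.116 for Tfpi). Beside these falls the contractile list summed to 4541 and 4396 CPM untreated and 3880 and 3958 CPM under R848, and the stromal sums given above were also lower; their part in the falls was not tested.

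Lipid-handling genes split. Of 18 LXR targets and oxysterol genes 1 rose and 2 fell, against 0.499% and 0.135% of all tested genes. Abca1, a cholesterol exporter, rose by 0.50 (SE 0.07, edgeR adjusted p = 0.03), from 259.5 and 283.0 CPM to 364.3 and 403.6 CPM. Abcg1, which exports cholesterol to mature HDL particles, fell by 0.59 (SE 0.09, edgeR adjusted p = 0.0386), from 141.4 and 136.8 CPM to 99.0 and 86.1 CPM. Hsd3b7, of bile acid synthesis, fell by 1.36 (SE 0.21, edgeR adjusted p = 0.0386), from 104.3 and 83.9 CPM to 43.3 and 30.2 CPM. Its position is inside the longer model Gm49388, a predicted gene on the same strand. Gm49388 held 0.21 and 0 CPM untreated and 44.9 and 61.9 CPM under R848. The Hsd3b7 fall is therefore uncertain, and how reads were divided between these models was not tested. The largest falls under the naming rule were those of Pheta1, an endosomal trafficking gene, and Chpf2, of chondroitin synthesis. Pheta1 (ENSMUSG00000044134, chromosome 5, 121848984 to 121854632) went from 10.02 and 9.42 CPM to 1.98 and 2.26 CPM, a fall of 2.19 (SE 0.21, edgeR adjusted p = 0.00861 for -2.19). Chpf2 held 70.3 and 128.1 CPM and then 21.4 and 24.6 CPM (-2.11, SE 0.33, edgeR adjusted p = 0.0398), and it overlaps Smarcd3 on the other strand. Its untreated libraries differed by 0.86 on the log2 scale, and its untreated WT libraries held 117.7 and 62.5 CPM. Chpf2 was not called by limma-voom, with robust spread or with the 4 KAT8-deficient libraries alone (edgeR adjusted p = 0.0813).

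The WT libraries showed changes in most of these genes. Of the 70 that rose, 67 also rose in WT cells, where 6.94% of all tested genes did, and of the 19 that fell, 10 also fell there, against 6.7% of all. Pheta1 was called in opposite directions, and 11 were not called in WT cells. The median change of the 70 was 0.76 in KAT8-deficient and 1.35 in WT cells, and 66 had the larger change in WT. In the 229 genes chosen in WT libraries the KAT8-deficient median was 0.59, 216 of them were above 0 (50.5% of all genes were), and 49 were called higher (0.499% of all). Both KAT8-deficient R848 libraries exceeded both untreated ones for 185 of the 229, against 23.8% of all. Their WT median, 1.38, was fixed in part by that choice. For the 86 genes chosen as lowered in WT, the KAT8-deficient median was -0.37, with -0.24 in R848 library 1 and -0.50 in library 2, and 2 were called lower (0.135% of all). The macrophage identity sums given above were lower in KAT8-deficient than in WT libraries. Such a sum rests mostly on its most abundant genes, and its members were not compared between the genotypes 1 by 1. The part of that difference in these comparisons was not tested.

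**Figure D4:**
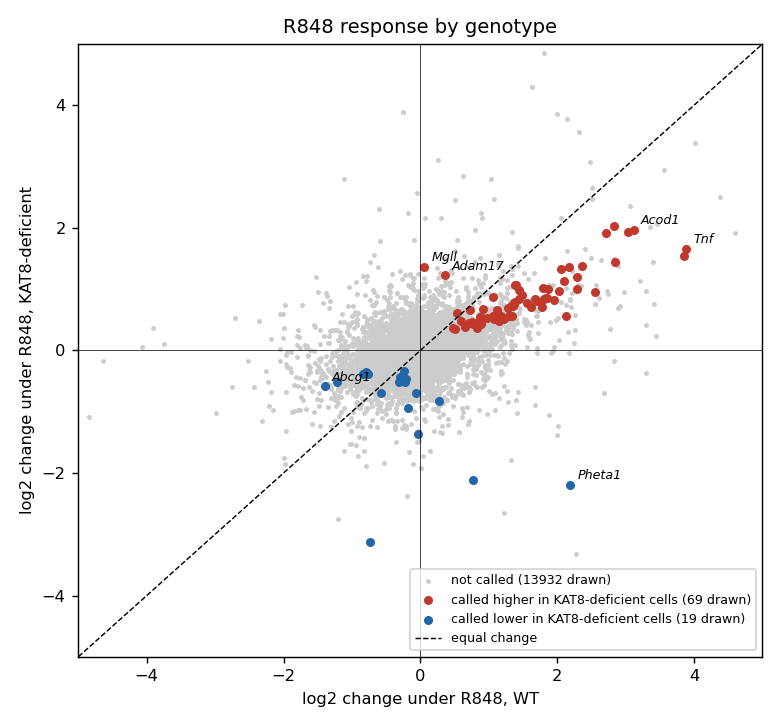
Log2 change under R848 in WT (x) and KAT8-deficient cells (y) for 14020 genes, with 20 outside the axes; red and blue mark genes called higher (69 drawn of 70) and lower in KAT8-deficient cells, and the dashed line marks equal change. Red points lie mostly under the line, while Mgll and Adam17 lie above it and Pheta1 in the opposite quadrant.

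The difference between the genotypes' responses (KAT8-deficient minus WT log2 change, so a smaller fall counts as above WT) was tested as an interaction. It was called for 32 genes: 8 above WT (0.057% of genes tested) and 24 below (0.171%). Without KAT8-deficient untreated library 1 it was called for 6, without either WT R848 library for 11, without KAT8-deficient untreated library 2 for 11, and without R848 library 2 for 208. Leaving out WT untreated library 2 gave 19. Among the genes called in KAT8-deficient cells, 9 had a response below WT and 3 above it. Tnf, at 381.4 and 367.9 CPM in WT R848 libraries, had a difference of -2.22 that did not pass (SE 0.36, edgeR adjusted p = 0.0575).

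Of genes with a response above WT, Mgll stood at 89.6 and 96.5 CPM in untreated WT libraries and 93.0 and 100.9 CPM under R848. Its untreated KAT8-deficient level was thus far below WT and its R848 level still below it, and the difference in response was 1.31 (SE 0.10, edgeR adjusted p = 0.00291). Tmem164 and Fbxo32, an E3 ubiquitin ligase subunit gene, fell in WT cells. Tmem164 went from 210.9 and 224.3 to 54.7 and 56.9 CPM in WT, and held 182.5, 194.9, 182.1 and 177.6 CPM in the KAT8-deficient libraries (difference 1.89, SE 0.09, edgeR adjusted p = 0.000163). Fbxo32 held 92.1 and 93.2 CPM and then 79.4 and 68.6 CPM in KAT8-deficient libraries, and its difference was 1.302 (SE 0.11, edgeR adjusted p = 0.00342).

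Pheta1 ran in mirror image: WT cells held 1.54 and 2.55 CPM untreated and 9.12 and 9.39 CPM under R848, and the difference was -4.38 (SE 0.29, edgeR adjusted p = 0.00137). Ccl4, a macrophage inflammatory chemokine gene, reached 48.8 and 47.0 CPM in WT R848 libraries and 16.9 and 17.8 CPM in KAT8-deficient ones, from 12.02 and 11.4 CPM untreated (difference -1.57, SE 0.13, edgeR adjusted p = 0.00342). Src, a tyrosine kinase gene added after its values were seen, held 66.2 and 68.4 CPM untreated and 47.0 and 50.6 CPM under R848 in KAT8-deficient cells. In WT cells Src went from 37.7 and 43.0 to 72.2 and 80.4 CPM, a difference of -1.38 (SE 0.13, edgeR adjusted p = 0.00544). Tmem164, Mgll, Ccl4, Fbxo32, Src and Pheta1 were the interaction genes called in every alternative that tested them and in all 8 fits leaving out a library.

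**Figure D5:**
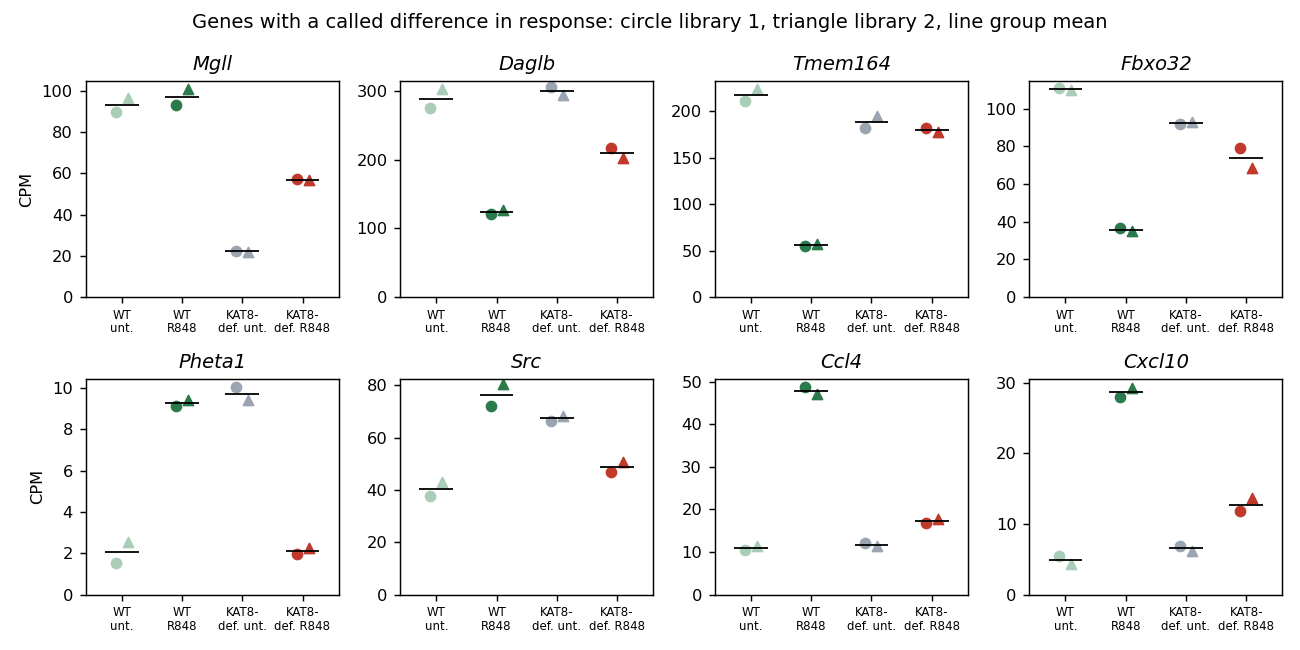
CPM from 0 in all 8 libraries for 8 genes with a called difference in response; circles are library 1, triangles library 2 and lines group means. Mgll rises between the KAT8-deficient groups and is flat in WT, Tmem164 and Fbxo32 fall mainly in WT, and Pheta1 and Src move in opposite directions in the 2 genotypes.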

How the data were processed

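Messenger RNA was sequenced from 8 libraries, and the 4 KAT8-deficient ones were compared by treatment. The authors deposited whole-number counts, with a row for each Ensembl identifier and a column for each library. HISAT2, StringTie 1.3.0, edgeR and the mm10 build are named in the submitters' processing notes, with no step given for each. Strand setting and annotation: not given in the sources used here. Overlapping genes and near-identical copies are therefore uncertain. Columns were matched by name, and 0 were left over. GENCODE M21 (GRCm38, the same build) gave symbols for 34344 of 34745 identifiers; the 401 others held 0.102% of counts.

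Genes were filtered with filterByExpr (edgeR 4.0.16, R 4.3.3), leaving 14040 with 99.95% of counts. TMM factors and a quasi-likelihood fit over all 8 libraries (4 residual degrees of freedom, common biological coefficient of variation 0.096) gave two-sided tests of the R848 change in each genotype and their difference, with Benjamini-Hochberg adjustment over all genes and a threshold of 0.05. SE is the absolute log2 change divided by the square root of F. Changes per library used log2 CPM with a prior count of 2. Replicates differed by more than counting error (chi-square per degree of freedom 7.62 to 12.3). The 3-count floor covers counting error only. Checks were tested on simulated data. There the test of the KAT8-deficient R848 change recovered 76 of 100 genes changed by 1 on the log2 scale. It recovered 99 of 100 changed by 2, and made 20 false calls among the unchanged genes of the 14040 simulated. The changed genes were drawn only from genes above a minimum of expected counts. Simulated libraries were drawn independently, without a gap shared across genes as between the 2 R848 libraries. Recovery of scarce or uneven genes was therefore not tested.

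Named genes were the 15 largest rises and falls (called, at least 5 CPM, no overlap, no predicted names), up to 4 called members per list, 14 immune and control genes, 8 each way by gap between the R848 libraries, and 8 each way by interaction; some genes that meet these rules are not reported here. The members, lists, rules and alternatives were chosen with earlier results of these data known. Alternatives were DESeq2 1.42.0 size factors and Wald test, limma-voom (limma 3.58.1), 2 filters, library totals, robust spread, a replicate block, the 4 libraries alone and leaving out each library.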

Additional observations from a re-analysis of the deposited data

Results flagged for a closer look

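The R848 response differed between KAT8-deficient and WT cells by edgeR's interaction test for the named genes that follow. Responses above WT were those of Tmem164 (1.89 on the log2 scale), Mgll (1.31), Fbxo32 (1.302), Xylt1 (0.77), Daglb (0.70) and Dhrs3 (0.63). Except for Mgll these were smaller falls and not larger rises. The WT changes were -1.96 for Tmem164, -1.63 for Fbxo32, -1.01 for Xylt1, -1.22 for Daglb and -0.91 for Dhrs3. In KAT8-deficient cells they were -0.07, -0.32, -0.25, -0.52 and -0.28. In Tmem164, Fbxo32, Xylt1 and Dhrs3 the KAT8-deficient change itself did not pass. Responses below WT were those of Pheta1 (-4.38), Ccl3 (-2.33), Hcar2 (-2.31), Cd40 (-2.18), Ifi205 (-1.81), Cxcl10 (-1.60), Ccl4 (-1.57) and Nfkbiz (-1.48). Daglb, Dhrs3, Ccl3, Cd40, Ifi205, Hcar2 and Nfkbiz kept the call in at most 2 of the 8 fits with a library left out.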

How the results depend on the processing

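Counts of calls moved with the processing. Genes higher under R848 numbered 70, against 198 with no filter on low counts, 167 by the DESeq2 Wald test, 114 with robust spread and 16 with the 4 libraries alone; genes lower numbered 19, against 76, 71, 44 and 6. Leaving out 1 library gave 1 to 150 higher and 1 to 36 lower. The interaction was called above WT for 8 genes, against 99, 80 and 53 under the first 3 of these settings, and below WT for 24, against 146, 151 and 95. Leaving out 1 library gave 3 to 67 above and 3 to 141 below. The cause of these shifts was not tested. The median of the 229 genes chosen in WT was 0.59, 0.41 with a choice at a log2 of 0.58, and 0.47 to 0.71 leaving out 1 library. With the replicate block nested in genotype, 78 genes were higher and 13 lower, 65 of the 91 shared with the 89, and 13 had an interaction above WT. The main fit did not pair libraries by their number. Replicate differences over all tested genes correlated at 0.05 (KAT8-deficient) and -0.04 (WT) between treatments. Such a correlation over all genes cannot decide whether libraries of the same number shared a mouse or culture. Of 83 named genes, 8 changed sign when a library was left out, and none of these 8 was called: Kat8 ran from -0.086 to 0.22, Tlr7 from -0.91 to 0.58, Il6 from -0.88 to 0.35, Isg15 from -0.078 to 0.24, Ptgs2 from -0.53 to 0.073, Apc from -0.15 to 1.28, Rragd from -0.83 to 0.61 and Rtp4 from -0.20 to 0.84. Of the 51 called, 8 were called under all processing alternatives. Genes near the 3-count floor, such as Nos2 and Il12b, are limited by depth.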
